A study of Homo sapiens with 12 samples.

Results

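Kinesins are motor proteins that hydrolyse ATP to move along microtubules, and the human genome encodes them as a family of KIF and KIFC genes. All genes whose symbols have the form KIF or KIFC followed by a number were taken from a table of 23686 genes, which gave 42 kinesins. Of these, 12 act mainly in cell division (KIF2C, KIF4A, KIF11, KIF14, KIF15, KIF18A, KIF18B, KIF20A, KIF20B, KIF22, KIF23 and KIFC1) and are called mitotic kinesins here. The other 30 mostly carry cargo, work in cilia or have less well known roles. The split follows a chosen list and is not a clean one by function. KIF4B, a near-identical copy of KIF4A, and KIF2A, used both in and outside mitosis, are among the 30. CENPE, a mitotic kinesin that ties chromosomes to microtubules, has a symbol of another form and is described beside its partners.

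Mitotic kinesins build the bipolar spindle, move and align chromosomes on it, and organise the bundle of microtubules on which a dividing cell is cut apart. Most are made anew in each cell cycle: their transcripts build up in G2 and mitosis and are removed as cells return to G1. In the promoters of such late cell cycle genes, a short element called the cell cycle genes homology region (CHR) is bound by the DREAM and MuvB complexes, often near CCAAT boxes bound by NF-Y. Cargo kinesins haul vesicles, organelles and RNA, and are used by dividing and resting cells alike.

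RNA was sequenced from HCT116, a line derived from a colon cancer, and MDA-MB-231, a line derived from a breast cancer. Each line was given an antibody named anti-Hsp60N together with H2O2, IgG together with H2O2, or IgG alone. The H2O2 dose was 100 µM for 8 h, and each of the 6 groups had 2 libraries, 12 in all. No group analysed here had the antibody without H2O2, the lines were grown in different media with 10% fetal bovine serum, and no genetic change to either line is named. Separate cultures are not stated for the 2 libraries of any group, and the p-values thus measure the spread between these libraries alone, which may be technical.

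Expression is given as TPM, a share of a library's transcripts after division by gene length. TPM keep no read depth, so the depth behind each value is unknown. From 12411 to 12653 genes had at least 1 TPM per library. Libraries of 1 group correlated across genes at 0.994 to 0.996 and libraries of the 2 lines at 0.787 to 0.796. The epithelial markers EPCAM and CDH1 reached 332 TPM and 25.6 TPM or more in every HCT116 library, against at most 25.3 and 0.65 TPM in MDA-MB-231 libraries. The mesenchymal marker VIM stood at 5.81 TPM or less in HCT116 libraries and at 2233 TPM or more in MDA-MB-231 libraries, and the leukocyte markers stayed at or under 0.08 TPM in both lines. The colon markers VIL1 and LGALS4 were near 0 in HCT116 libraries. Of other mesenchymal markers, AXL, MSN and CD44 were higher in MDA-MB-231 libraries, but CAV1 still had 286.9 to 317.9 TPM in HCT116 libraries. ERBB2, listed among receptors that MDA-MB-231 lacks, had 30.55 to 33.1 TPM there. Of fibroblast and endothelial markers, COL1A1 had 5.85 to 8.09 TPM in HCT116 libraries and 3.88 to 5.35 TPM in MDA-MB-231 libraries. PECAM1 had 1.86 to 2.9 TPM in MDA-MB-231 libraries.

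All 12 mitotic kinesins were well expressed in both lines, between 12.6 and 180.2 TPM over the 12 libraries. Under IgG, KIF22 was the most abundant of them in HCT116 cells, at 168 and 180.2 TPM, ahead of KIF2C at 132 and 135 TPM. In MDA-MB-231 cells KIF2C led, at 154 and 159 TPM, followed by KIFC1 at 138 and 139 TPM. KIF15 was the lowest in both lines, at 15.0 and 14.9 TPM in HCT116 cells and 15.5 and 16.1 TPM in MDA-MB-231 cells. KIF22 carries chromosomes away from the spindle poles, KIF2C takes microtubules apart at their ends, KIFC1 bundles microtubules at the poles, and KIF15 can push the poles apart. KIF4A and KIF11 were neighbours in this order in HCT116 cells, at 56.5 and 55.8 TPM and 54.7 and 52.2 TPM under IgG, and their means lay about as far apart as the KIF11 libraries did.

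Of the other 30 kinesins, 22 reached 1 TPM in at least 2 libraries and were tested, and all 12 mitotic kinesins did. The 8 that did not were KIF1A, which carries synaptic vesicle precursors in axons, KIF17, known from dendrites and cilia, KIF19, a regulator of cilium length, and KIF2B, KIF4B, KIF6, KIF25 and KIF26B. None of the 8 exceeded 0.76 TPM, and KIF2B was listed at 0 in all 12 libraries. KIF4B is a near-identical copy of KIF4A, so the split of reads between them is uncertain, and KIF4B was listed at 0.05 TPM or less. The most abundant other kinesin of HCT116 cells was KIF5B, the conventional kinesin heavy chain, with 135 and 135 TPM under IgG. In MDA-MB-231 cells it was KIFC3, a motor linked to adherens junctions and the Golgi, with 116 and 121 TPM under IgG.

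The promoters of the mitotic kinesins shared letters that those of the other kinesins mostly lacked. RefSeq promoter windows of GRCh38.p14, from 250 bases before to 50 bases after the annotated start, were found for 34 of the 42 kinesins, 12 mitotic and 22 other. The CHR letters, TTTGAA or TTCGAA on either strand, were in 10 of 12 mitotic windows (83.3%) and in 3 of 22 other windows (13.6%), those of KIF4B, KIF5B and KIF24. They were in 10.8% of the 9996 windows of genes tested and in 16.6% of all 27305 windows. Of the 22 other windows, 16 belong to kinesins tested, and 2 of these held the letters (12.5%). CCAAT on either strand was in 10 of 12 mitotic windows (83.3%), 7 of 22 other windows (31.8%), 36.8% of the windows of genes tested and 35.7% of all windows. Both stood together in 9 of 12 mitotic windows (75.0%), 3 of 22 other windows (13.6%), 4.64% of the windows of genes tested and 6.58% of all windows. Letters of an E2F type (TTTGGCG, also TTTCGCG, and likewise TTCCCGC, on either strand) were in 2 of 12 mitotic windows (KIF11 and KIF15) and 5 of 22 other windows, in 14.6% of the windows of genes tested and in 9.39% of all windows. TATAAA on either strand was in 0 of 12 mitotic windows, 2 of 22 other windows and 5.52% of the windows of genes tested. A match of letters is a description and not evidence that a factor binds there, and matches of different motifs shared no base in the mitotic windows.

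Below are 6 windows: KIF20A, KIF18A and KIF14, which had the largest falls under H2O2 in MDA-MB-231 cells, KIF23 as an example in which CCAAT and CHR lie close together, KIF2C, which has neither, and KIF15, which was not called. Capitals mark the CHR and CCAAT letters on either strand, so CCAAT on the opposite strand reads ATTGG and TTTGAA reads TTCAAA. The sequences are RefSeq, GRCh38.p14, 5′ to 3′ on the strand of the gene. KIF20A lies at chr5:138178862-138179161 on the plus strand, KIF18A at chr11:28108107-28108406 on the minus strand and KIF14 at chr1:200620702-200621001 on the minus strand. KIF23 lies at chr15:69414099-69414398, KIF2C at chr1:44739587-44739886 and KIF15 at chr3:44761544-44761843, all on the plus strand.
KIF20A: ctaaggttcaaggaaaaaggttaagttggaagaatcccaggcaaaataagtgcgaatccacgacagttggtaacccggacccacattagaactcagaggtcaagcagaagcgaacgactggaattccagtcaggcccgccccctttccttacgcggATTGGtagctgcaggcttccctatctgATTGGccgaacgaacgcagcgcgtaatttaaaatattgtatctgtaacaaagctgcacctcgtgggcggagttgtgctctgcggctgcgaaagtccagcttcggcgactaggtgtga
KIF18A: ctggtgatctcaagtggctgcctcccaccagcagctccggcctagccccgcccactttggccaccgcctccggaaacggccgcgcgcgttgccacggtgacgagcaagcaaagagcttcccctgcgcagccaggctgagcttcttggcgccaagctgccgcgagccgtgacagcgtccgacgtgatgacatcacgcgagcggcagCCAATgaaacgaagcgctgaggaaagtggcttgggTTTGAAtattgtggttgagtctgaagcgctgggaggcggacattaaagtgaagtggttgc
KIF14: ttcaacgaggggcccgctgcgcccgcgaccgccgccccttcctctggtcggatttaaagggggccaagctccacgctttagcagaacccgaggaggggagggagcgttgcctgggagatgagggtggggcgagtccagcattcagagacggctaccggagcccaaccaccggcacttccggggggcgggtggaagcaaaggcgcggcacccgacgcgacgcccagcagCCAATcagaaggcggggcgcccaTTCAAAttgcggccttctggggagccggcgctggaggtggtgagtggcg
KIF23: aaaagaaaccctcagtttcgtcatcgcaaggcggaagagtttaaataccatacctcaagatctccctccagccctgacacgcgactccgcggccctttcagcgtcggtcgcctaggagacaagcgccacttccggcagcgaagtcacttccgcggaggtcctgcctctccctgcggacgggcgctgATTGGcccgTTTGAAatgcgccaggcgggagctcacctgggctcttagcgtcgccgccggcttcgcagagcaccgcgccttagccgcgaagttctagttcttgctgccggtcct
KIF2C: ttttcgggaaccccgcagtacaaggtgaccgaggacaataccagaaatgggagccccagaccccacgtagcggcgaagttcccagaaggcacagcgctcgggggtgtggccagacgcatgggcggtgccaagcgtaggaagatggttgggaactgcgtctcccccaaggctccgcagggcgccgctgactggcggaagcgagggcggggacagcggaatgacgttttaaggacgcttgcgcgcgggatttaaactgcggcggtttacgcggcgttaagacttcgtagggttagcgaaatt
KIF15: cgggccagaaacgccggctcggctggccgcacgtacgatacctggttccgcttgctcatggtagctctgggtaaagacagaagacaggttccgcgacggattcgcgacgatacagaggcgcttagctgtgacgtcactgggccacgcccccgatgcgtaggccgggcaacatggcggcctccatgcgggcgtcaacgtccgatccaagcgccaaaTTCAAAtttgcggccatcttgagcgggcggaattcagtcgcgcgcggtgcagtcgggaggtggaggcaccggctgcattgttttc
KIF18A, KIF14 and KIF23 hold 1 CCAAT and 1 CHR match each. KIF20A holds 2 CCAAT matches, 94 and 67 bases before the start, and no CHR letters in this window. KIF15 holds CHR letters 35 bases before the start and no CCAAT.

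**Figure D1:**
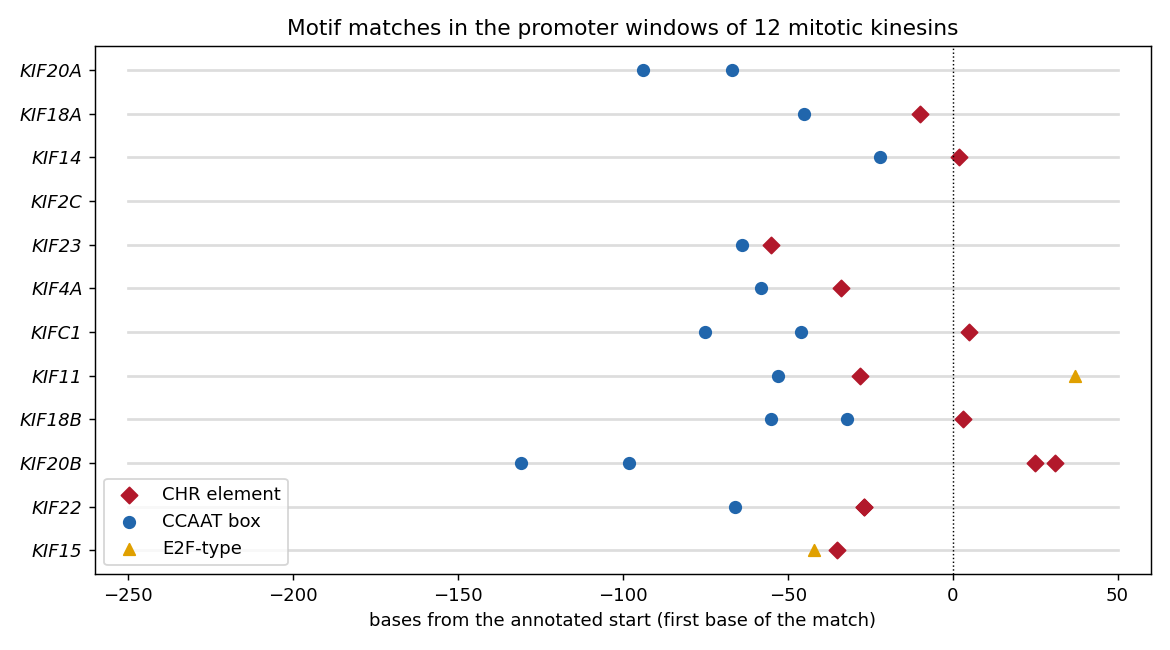
Motif matches in the promoter windows of the 12 mitotic kinesins. The horizontal axis gives the distance in bases of the first base of a match from the annotated start, each row is 1 gene, and the symbols stand for CHR, CCAAT and E2F-type letters. CCAAT matches lie before the start in the 10 genes that have them, and CHR matches lie near the start in the 10 that have them.

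Nearly all mitotic kinesins were lower under H2O2 in both lines, and few of the other kinesins were called. In HCT116 cells given IgG with H2O2, 11 of 12 mitotic kinesins fell against IgG alone and 0 rose, where 17.5% of the 13956 genes tested were called lower (limma, Benjamini-Hochberg adjusted p under 0.05). In MDA-MB-231 cells, 11 of 12 fell and 0 rose, where 1.36% of the genes tested were called lower. The median change of the 12 was -0.43 in HCT116 cells and -0.41 in MDA-MB-231 cells on the log2(TPM + 1) scale, beside -0.01 and 0.03 over all genes tested. Among the other 22 kinesins tested, 1 fell and 1 rose in HCT116 cells, where 15.4% of genes were called higher, and 0 were called in MDA-MB-231 cells, where 1.3% were called higher. Their medians were -0.04 in HCT116 cells and 0.03 in MDA-MB-231 cells. In MDA-MB-231 cells, 17 of these 22 had an IgG mean of at least 1 TPM. The rest (KIF5A, KIF5C, KIF12, KIF21B and KIF26A) passed the filter through HCT116 libraries alone. They had little or no room to fall in MDA-MB-231 cells, and the count and median there include them. Over the 17, the median H2O2 level was 105.0% of the IgG mean, beside 74.8% over the 12 mitotic kinesins. Libraries with H2O2 lay below all IgG libraries for 12 of 12 mitotic kinesins in HCT116 cells, where 33.6% of all genes did, and for 11 of 12 in MDA-MB-231 cells, where 17.3% did. In these bulk samples, fewer cells in G2 or mitosis and less kinesin RNA per cell cannot be told apart.

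**Figure D2:**
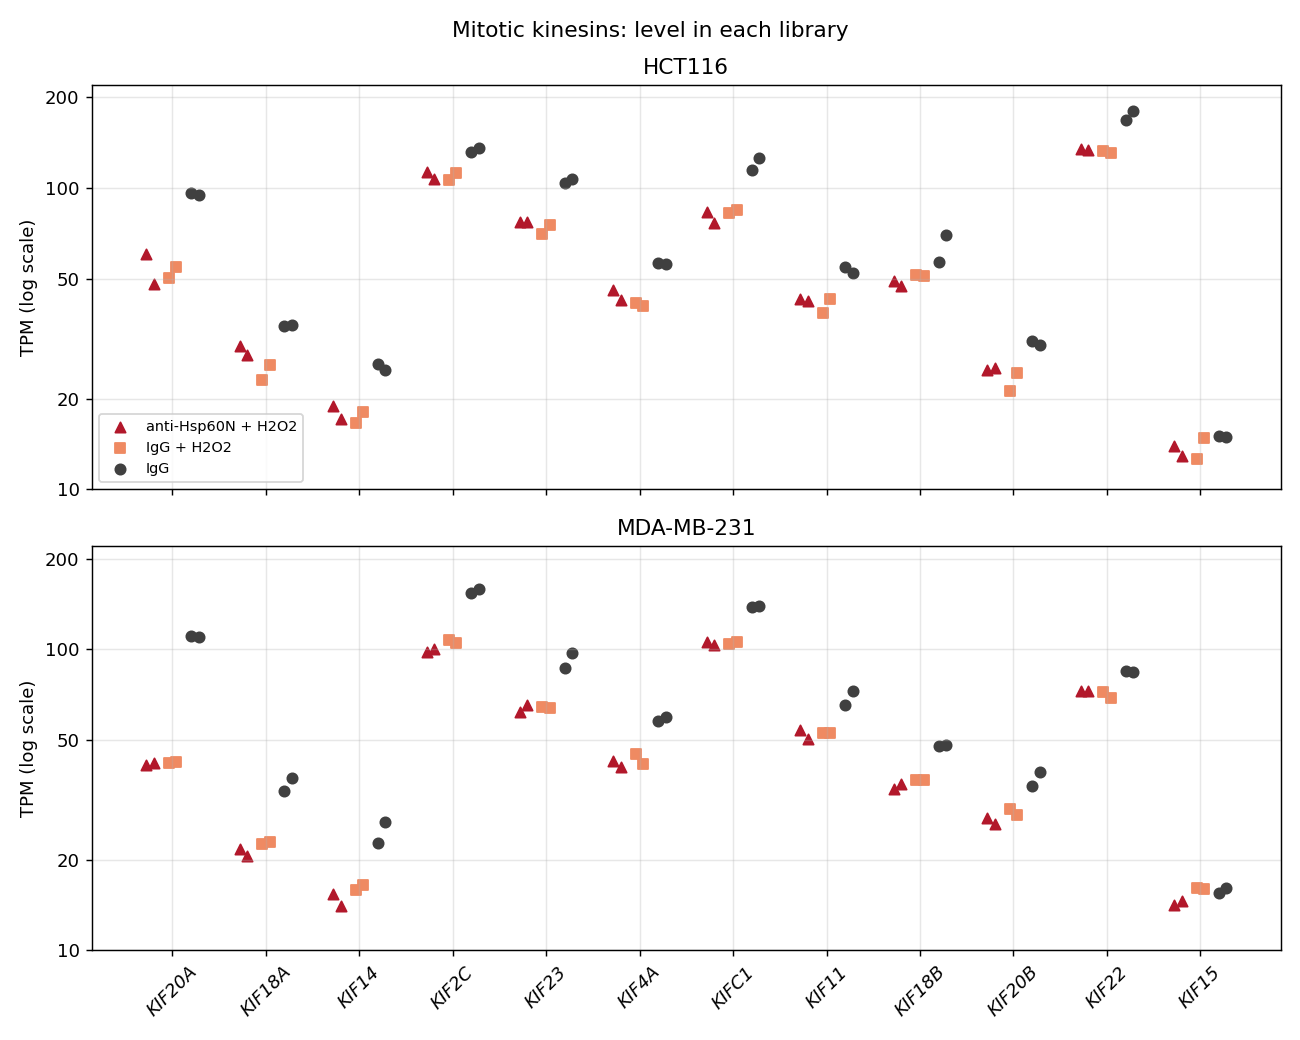
Level of each mitotic kinesin in each library, in TPM on a log axis, HCT116 above and MDA-MB-231 below. Triangles are anti-Hsp60N with H2O2, squares IgG with H2O2 and circles IgG, with 1 symbol for each of the 2 libraries of a group. Circles stand above the squares for 12 of 12 genes in HCT116 cells and for 11 of 12 in MDA-MB-231 cells, with KIF15 as the exception.

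The motors of the midzone and of cytokinesis held the largest change. KIF20A brings the chromosomal passenger complex to the spindle midzone. It had 50.3 and 54.5 TPM in HCT116 cells under H2O2, against 96.2 and 94.6 TPM under IgG, and 41.9 and 42.3 TPM in MDA-MB-231 cells under H2O2, against 110.5 and 110.0 TPM under IgG. Every library with H2O2 was below every library without it in both lines, at a mean of 54.9% of the IgG level in HCT116 cells and 38.2% in MDA-MB-231 cells. The change was -0.85 ± 0.08 (SE), adjusted p = 5.14e-05 in HCT116 cells and -1.37 ± 0.08 (SE), adjusted p = 2.40e-05 in MDA-MB-231 cells (limma). Its window, printed above, is the one with CCAAT letters but no CHR letters. In the GENCODE annotation, CDC23 overlaps KIF20A on the opposite strand over 2.12% of its exon bases, METTL15 overlaps KIF18A over 1.71%, and no such overlap of a mitotic kinesin exceeds 6.33%. No source used here gives the strand setting of the libraries, so reads there cannot be assigned.

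KIF23, the motor of centralspindlin, had 70.2 and 75.5 TPM in HCT116 cells under H2O2, against 104 and 107 TPM under IgG. In MDA-MB-231 cells it had 64.5 and 64.0 TPM under H2O2, against 86.5 and 97.2 TPM under IgG. The groups did not overlap in either line, and the change was -0.53 ± 0.06 (SE), adjusted p = 1.49e-04 in HCT116 cells and -0.51 ± 0.06 (SE), adjusted p = 0.00151 in MDA-MB-231 cells (limma). KIF14, which works with citron kinase at the midbody, had 16.6 and 18.0 TPM in HCT116 cells under H2O2, against 26.0 and 24.9 TPM under IgG. In MDA-MB-231 cells KIF14 had 15.9 and 16.5 TPM under H2O2, against 22.7 and 26.7 TPM under IgG. Again no library with H2O2 reached a library without it, and the change was -0.53 ± 0.09 (SE), adjusted p = 0.00116 in HCT116 cells and -0.58 ± 0.09 (SE), adjusted p = 0.00564 in MDA-MB-231 cells (limma).

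KIF20B, a relative of KIF20A needed for the completion of cytokinesis, had 21.2 and 24.3 TPM in HCT116 cells under H2O2, against 30.9 and 30.1 TPM under IgG. In MDA-MB-231 cells it had 29.4 and 28.1 TPM under H2O2, against 35.2 and 39.3 TPM under IgG. The groups were apart in both lines, and the change was -0.41 ± 0.07 (SE), adjusted p = 0.00197 in HCT116 cells and -0.36 ± 0.07 (SE), adjusted p = 0.0291 in MDA-MB-231 cells (limma). KIF4A, a chromosome-bound motor that also limits the length of midzone microtubules, had 41.7 and 40.7 TPM in HCT116 cells under H2O2, against 56.5 and 55.8 TPM under IgG. Its values in MDA-MB-231 cells were 44.8 and 41.7 TPM under H2O2, against 57.6 and 59.6 TPM under IgG. KIF4A was lower in every library with H2O2, with a change of -0.44 ± 0.06 (SE), adjusted p = 3.29e-04 in HCT116 cells and -0.43 ± 0.06 (SE), adjusted p = 0.00268 in MDA-MB-231 cells (limma).

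Among motors that move chromosomes or act at microtubule ends, all 4 fell in both lines. KIF2C had 106 and 113 TPM in HCT116 cells under H2O2, against 132 and 135 TPM under IgG, and 108 and 105 TPM in MDA-MB-231 cells under H2O2, against 154 and 159 TPM under IgG. The groups did not overlap, and the change was -0.29 ± 0.05 (SE), adjusted p = 0.00122 in HCT116 cells and -0.55 ± 0.05 (SE), adjusted p = 1.93e-04 in MDA-MB-231 cells (limma). KIF18A, which damps the movement of chromosomes at the spindle equator, had 23.0 and 25.9 TPM in HCT116 cells under H2O2, against 34.9 and 35.0 TPM under IgG. In MDA-MB-231 cells KIF18A had 22.5 and 23.0 TPM under H2O2, against 33.9 and 37.3 TPM under IgG. Both lines showed a clear gap between groups, and the change was -0.50 ± 0.07 (SE), adjusted p = 5.46e-04 in HCT116 cells and -0.62 ± 0.07 (SE), adjusted p = 0.00122 in MDA-MB-231 cells (limma).

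KIF18B, which trims astral microtubules together with KIF2C, had 51.2 and 50.9 TPM in HCT116 cells under H2O2, against 57.0 and 69.8 TPM under IgG. Its levels in MDA-MB-231 cells were 36.9 and 36.9 TPM under H2O2, against 47.7 and 48.1 TPM under IgG. The groups did not overlap, although the IgG libraries of HCT116 cells were spread widely, and the change was -0.30 ± 0.08 (SE), adjusted p = 0.0136 in HCT116 cells and -0.37 ± 0.08 (SE), adjusted p = 0.0334 in MDA-MB-231 cells (limma). KIF22 had 133 and 131 TPM in HCT116 cells under H2O2, against 168 and 180.2 TPM under IgG, and 71.9 and 68.7 TPM in MDA-MB-231 cells under H2O2, against 84.5 and 84.0 TPM under IgG. It was lower in all libraries with H2O2, with a change of -0.40 ± 0.05 (SE), adjusted p = 1.55e-04 in HCT116 cells and -0.26 ± 0.05 (SE), adjusted p = 0.0158 in MDA-MB-231 cells (limma).

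Of the motors that set up the bipolar spindle, KIF11 and KIFC1 fell and KIF15 was not called. KIF11, which slides antiparallel microtubules to push the poles apart, had 38.4 and 42.7 TPM in HCT116 cells under H2O2, against 54.7 and 52.2 TPM under IgG. In MDA-MB-231 cells KIF11 had 52.7 and 52.8 TPM under H2O2, against 65.1 and 72.6 TPM under IgG. The groups did not overlap, and the change was -0.39 ± 0.07 (SE), adjusted p = 0.00178 in HCT116 cells and -0.38 ± 0.07 (SE), adjusted p = 0.0164 in MDA-MB-231 cells (limma). KIFC1, a motor that walks to the minus end and clusters extra centrosomes in cancer cells, had 82.9 and 84.8 TPM in HCT116 cells under H2O2, against 115 and 126 TPM under IgG. Its levels in MDA-MB-231 cells were 104 and 106 TPM under H2O2, against 138 and 139 TPM under IgG. KIFC1 was lower in every library with H2O2, with a change of -0.52 ± 0.05 (SE), adjusted p = 8.32e-05 in HCT116 cells and -0.40 ± 0.05 (SE), adjusted p = 0.00297 in MDA-MB-231 cells (limma).

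KIF15 alone of the 12 was not called in either line, and whether its change differed from those of the other 11 was not tested. It had 12.6 and 14.8 TPM in HCT116 cells under H2O2, against 15.0 and 14.9 TPM under IgG, and 16.1 and 16.0 TPM in MDA-MB-231 cells under H2O2, against 15.5 and 16.1 TPM under IgG. In HCT116 cells both libraries with H2O2 were below both without it, the nearest pair by about the spread of the IgG libraries, and in MDA-MB-231 cells the groups overlapped. The change was -0.12 ± 0.08 (SE), adjusted p = 0.248 in HCT116 cells and 0.02 ± 0.08 (SE), adjusted p = 0.936 in MDA-MB-231 cells (limma), so a change was not shown in either line. The group means under H2O2 were 91.6% of the IgG mean in HCT116 cells and 101.7% in MDA-MB-231 cells, the highest percentages among the 12 in both lines.

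Some of the calls in MDA-MB-231 cells were lost when 1 library was left out. KIF14 was no longer called without H2O2 replicate 1 of that line (adjusted p = 0.0629, limma), and KIF11 without either H2O2 library or IgG replicate 2 (up to 0.125). KIF20B lost its call without those 3 libraries or either anti-Hsp60N library of HCT116 cells (up to 0.215), and KIF22 without any of the 4 MDA-MB-231 libraries compared (up to 0.171). KIF18B lost it without any of those 4 libraries or any of 4 HCT116 libraries with H2O2 (up to 0.19). Without 1 of those 4 MDA-MB-231 libraries, the KIF18B change was -0.37 to -0.36 and the KIF22 change -0.29 to -0.22. With all libraries these changes were -0.37 and -0.26. Without IgG replicate 2, KIF11 was at -0.30 and KIF20B at -0.29, against -0.38 and -0.36 with it. Fitted on MDA-MB-231 libraries alone, 5 of 12 mitotic kinesins were called lower in place of 11. In HCT116 cells KIF18B alone lost its call, without IgG replicate 2, where its change was -0.15 (adjusted p = 0.0689, limma), or without either H2O2 library (up to 0.0634).

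Summed over the 12 genes, mitotic kinesins had 661 ± 19.9 TPM under H2O2 and 908 ± 25.1 TPM under IgG in HCT116 cells (SD, n = 2 each), or 72.8% of the IgG sum. In MDA-MB-231 cells they had 605 ± 4.84 TPM under H2O2 and 869.9 ± 26.7 TPM under IgG (SD, n = 2 each), or 69.5%. The other kinesins together kept 94.3% of their IgG sum in HCT116 cells and 95.9% in MDA-MB-231 cells. The mitotic share of all kinesin TPM was thus 58.5% under H2O2 and 64.6% under IgG in HCT116 cells, and 56.9% under H2O2 and 64.6% under IgG in MDA-MB-231 cells.

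**Figure D3:**
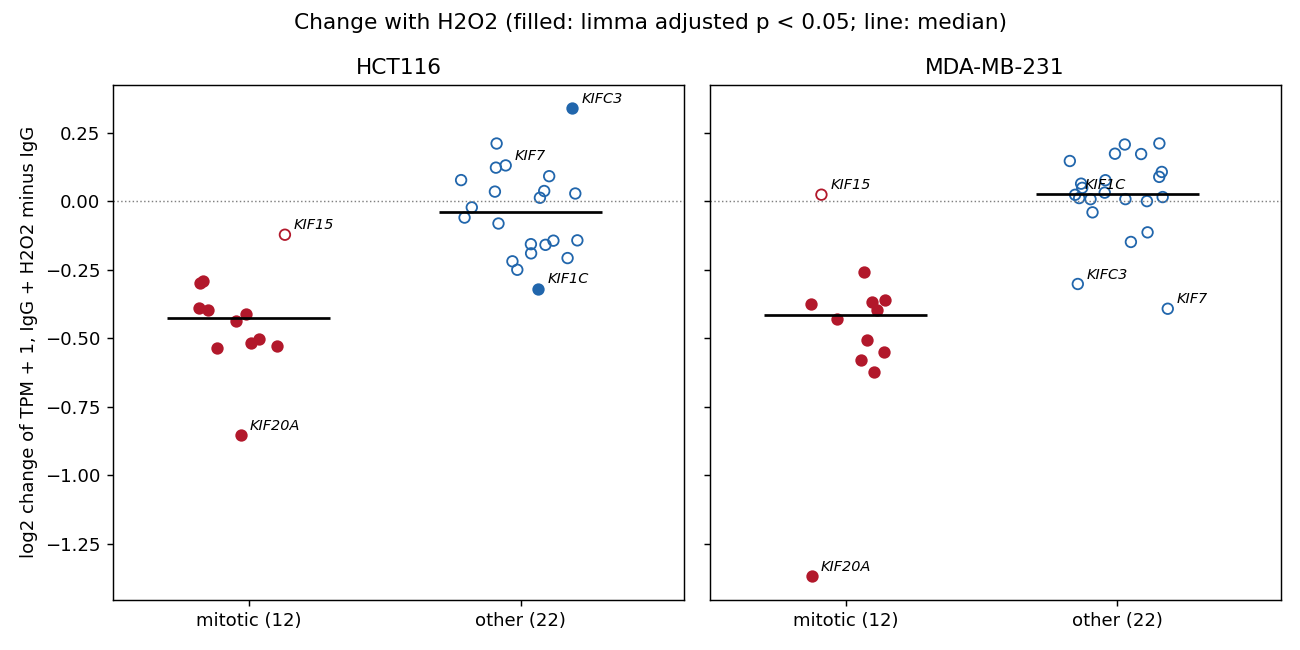
Change of each kinesin with H2O2, HCT116 on the left and MDA-MB-231 on the right. The vertical axis is the log2 change of TPM + 1, IgG with H2O2 minus IgG, each point is 1 kinesin, filled where the limma adjusted p was under 0.05, and lines mark medians. In both panels the 12 mitotic kinesins centre near -0.4 and the 22 other kinesins near 0, and KIF20A is the lowest point. KIF5A, KIF5C, KIF12, KIF21B and KIF26A stayed under 1 TPM in MDA-MB-231 libraries, so their points near 0 in that panel carry little information.

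Of the other kinesins, KIF1C and KIFC3 were called with H2O2, both in HCT116 cells. KIF1C, which carries integrins and other cargo to the cell periphery, had 69.7 and 69.8 TPM in HCT116 cells under H2O2, against 85.2 and 89.5 TPM under IgG, a change of -0.32 ± 0.06 (SE), adjusted p = 0.00198 (limma). In MDA-MB-231 cells KIF1C had 73.5 and 71.3 TPM under H2O2, against 69.0 and 73.5 TPM under IgG. The HCT116 groups were far apart and the MDA-MB-231 groups overlapped. KIFC3 had 19.2 and 18.4 TPM in HCT116 cells under H2O2, against 13.3 and 16.1 TPM under IgG, a change of 0.34 ± 0.08 (SE), adjusted p = 0.00777 (limma). In MDA-MB-231 cells KIFC3 had 97.9 and 94.0 TPM under H2O2, against 116 and 121 TPM under IgG, and was not called (-0.30, adjusted p = 0.0737). The KIFC3 groups were apart in both lines, higher with H2O2 in HCT116 cells and lower with H2O2 in MDA-MB-231 cells. Without H2O2 replicate 1 of HCT116 cells, the KIFC3 call there was lost (adjusted p = 0.0507, limma), and without IgG replicate 1 its change was 0.21. The call was also lost when HCT116 libraries were fitted alone (adjusted p = 0.0839, limma).

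KIF7, a regulator of Hedgehog signalling at the tip of the primary cilium, had 1.44 and 1.43 TPM in HCT116 cells under H2O2, against 1.02 and 1.45 TPM under IgG. In MDA-MB-231 cells it had 5.92 and 5.86 TPM under H2O2, against 8.11 and 7.98 TPM under IgG, and was not called there (adjusted p = 0.0773, limma). The HCT116 groups overlapped and lay near 1 TPM, and in MDA-MB-231 cells both H2O2 libraries were lower. With another scaling, by medians of ratios, KIF7 and KIFC3 were called lower in MDA-MB-231 cells (adjusted p = 0.047 and 0.0301, limma). KIF5B, the abundant heavy chain, had 125 and 135 TPM in HCT116 cells under H2O2, against 135 and 135 TPM under IgG, and 102 and 98.1 TPM in MDA-MB-231 cells under H2O2, against 101 and 116 TPM under IgG. It was not called in either line.

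The H2O2 change itself differed between the lines for 5 of the 34 kinesins tested, where 17.4% of all genes were called (9.72% lower and 7.65% higher in HCT116 cells). That share of kinesins is near the share of all genes. The fall of KIF20A was smaller in HCT116 cells, with changes of -0.85 in HCT116 cells and -1.37 in MDA-MB-231 cells, a difference of 0.52 ± 0.12 (SE), adjusted p = 0.0158 (limma). KIF2C likewise fell by less in HCT116 cells, with a difference of 0.26 ± 0.07 (SE), adjusted p = 0.0247 (limma). For the other kinesins, the difference was 0.64 ± 0.11 (SE), adjusted p = 0.00406 for KIFC3, 0.52 ± 0.15 (SE), adjusted p = 0.0331 for KIF7 and -0.34 ± 0.08 (SE), adjusted p = 0.0171 for KIF1C (limma). KIFC3 kept its call whichever of the 12 libraries was left out. The others did not: KIF20A lost it without HCT116 H2O2 replicate 2 or MDA-MB-231 H2O2 replicate 1 (adjusted p up to 0.0572), KIF1C without MDA-MB-231 IgG replicate 1 or MDA-MB-231 H2O2 replicate 1 (up to 0.0649), KIF2C without either MDA-MB-231 H2O2 library, MDA-MB-231 IgG replicate 2, HCT116 IgG replicate 1 or HCT116 H2O2 replicate 2 (up to 0.0906) and KIF7 without either MDA-MB-231 IgG library, either MDA-MB-231 H2O2 library, HCT116 IgG replicate 1 or either HCT116 H2O2 library (up to 0.0943).

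Between antibody and IgG under H2O2, no kinesin was called in either line. Given H2O2, the antibody set against IgG had 0 of 34 kinesins called by limma in HCT116 cells, where 0.0215% of all genes were, and 0 of 34 in MDA-MB-231 cells, where 0.0143% were. At an unadjusted p under 0.05 there were 1 mitotic and 1 other kinesin in HCT116 cells (KIF18A and KIF12), and 0 mitotic and 2 other in MDA-MB-231 cells (KIF13A and KIF7). The difference between the lines in this antibody change was called for 0 kinesins and for 0.0287% of all genes. The median over the 12 mitotic kinesins was 0.05 in HCT116 cells and -0.06 in MDA-MB-231 cells, beside 0.01 and -0.02 over all genes tested. Their 95% intervals lay between -0.254 and 0.397 in HCT116 cells and between -0.318 and 0.174 in MDA-MB-231 cells.

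KIF20A had 60.2 and 48.0 TPM in HCT116 cells with anti-Hsp60N and H2O2, against 50.3 and 54.5 TPM with IgG and H2O2. In MDA-MB-231 cells it had 41.4 and 42.1 TPM with anti-Hsp60N and H2O2, against 41.9 and 42.3 TPM with IgG and H2O2. The groups overlapped in both lines, with an interval of -0.149 to 0.225 in HCT116 cells and -0.199 to 0.174 in MDA-MB-231 cells. KIF18A had the largest fitted difference of the 12 in HCT116 cells, with 29.9 and 28.0 TPM in HCT116 cells with anti-Hsp60N and H2O2, against 23.0 and 25.9 TPM with IgG and H2O2. Both antibody libraries of HCT116 cells were higher, with a difference of 0.24 ± 0.07 (SE), adjusted p = 0.92 (limma) and an unadjusted p of 0.00733. In MDA-MB-231 cells KIF18A had 21.7 and 20.5 TPM with anti-Hsp60N and H2O2, against 22.5 and 23.0 TPM with IgG and H2O2, lower in both antibody libraries. Over the 12 mitotic kinesins, antibody and IgG libraries did not overlap for 1 lower and 5 higher genes in HCT116 cells, where 15.5% of all genes were lower and 21.9% higher without overlap. In MDA-MB-231 cells there were 6 lower and 1 higher, where 31.3% of all genes were lower and 16.8% higher without overlap.

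**Figure D4:**
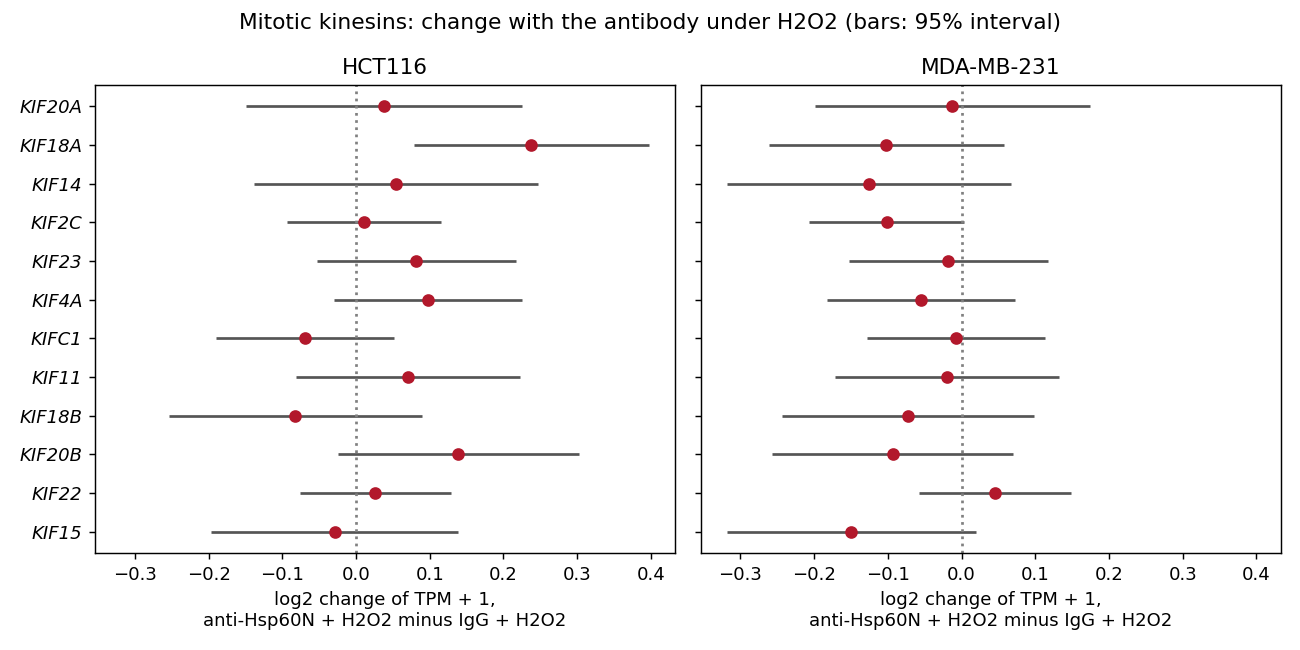
Change of each mitotic kinesin with the antibody under H2O2, HCT116 on the left and MDA-MB-231 on the right. The horizontal axis is the log2 change of TPM + 1, anti-Hsp60N with H2O2 minus IgG with H2O2, with the fitted value as a point and its 95% interval as a bar. The intervals lie within -0.318 and 0.397, and all but that of KIF18A in HCT116 cells cross 0.

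Against IgG alone, 11 of 12 mitotic kinesins, all but KIF15, were called lower in each line with anti-Hsp60N and H2O2. The comparison shares its IgG libraries with that of H2O2. In HCT116 cells the median of the 12 was -0.36, where 17.5% of all genes were called lower and 16.8% higher, and in MDA-MB-231 cells it was -0.47, where 1.9% were called lower and 1.5% higher. KIF20A again had the largest fall, with -0.82 ± 0.08 (SE), adjusted p = 6.34e-05 in HCT116 cells and -1.38 ± 0.08 (SE), adjusted p = 2.23e-05 in MDA-MB-231 cells (limma). KIF15 had 13.9 and 12.8 TPM in HCT116 cells with anti-Hsp60N and H2O2 and 14.2 and 14.6 TPM in MDA-MB-231 cells with anti-Hsp60N and H2O2, below its IgG libraries given above in both lines, and was not called (adjusted p = 0.152 and 0.404, limma). The summed mitotic kinesins were 676 ± 25.4 TPM with anti-Hsp60N and H2O2 in HCT116 cells, 74.4% of the IgG sum, and 587 ± 2.84 TPM in MDA-MB-231 cells, 67.5% (SD, n = 2 each). Some of these calls were lost when 1 library was left out. In HCT116 cells these were KIF18A without either HCT116 IgG library or HCT116 anti-Hsp60N replicate 2 (adjusted p up to 0.115) and KIF20B without HCT116 IgG replicate 1 or either HCT116 anti-Hsp60N library (up to 0.0754), and KIF18B was at -0.24 without HCT116 IgG replicate 2, against -0.38 with it. In MDA-MB-231 cells KIF18B was lost without either MDA-MB-231 IgG library or either MDA-MB-231 anti-Hsp60N library (up to 0.0919), KIF11 without MDA-MB-231 IgG replicate 2 or MDA-MB-231 anti-Hsp60N replicate 2 (up to 0.107) and KIF20B without MDA-MB-231 IgG replicate 2 or MDA-MB-231 anti-Hsp60N replicate 2 (up to 0.0821). KIF22 was lost there without any 1 library other than the HCT116 IgG libraries (up to 0.155). Fitted on MDA-MB-231 libraries alone, 6 of 12 were called.

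Among the other kinesins, 0 were called in MDA-MB-231 cells with anti-Hsp60N and H2O2 against IgG. There, 17 of the 22 tested had an IgG mean of at least 1 TPM. In HCT116 cells, 3 fell and 1 rose in this comparison. With 17.5% of all genes called lower and 16.8% higher in HCT116 cells, these counts of 22 are not above the share of all genes. KIF1C had 69.1 and 71.7 TPM with anti-Hsp60N and H2O2, against 85.2 and 89.5 TPM under IgG (-0.31 ± 0.06 (SE), adjusted p = 0.0024, limma). KIF3C, a neuronal relative of the ciliary motor subunits, had 2.2 and 1.81 TPM with anti-Hsp60N and H2O2, against 2.80 and 2.89 TPM under IgG (-0.36 ± 0.09 (SE), adjusted p = 0.0138, limma). KIF12, a kinesin of kidney and other epithelia, had 1.10 and 0.48 TPM with anti-Hsp60N and H2O2, against 1.44 and 1.95 TPM under IgG (-0.61 ± 0.16 (SE), adjusted p = 0.0128, limma). These 3 were lower in both antibody libraries than in both IgG libraries, and KIF3C and KIF12 stayed under 3 TPM in all HCT116 libraries. KIFC3 had 16.9 and 18.0 TPM with anti-Hsp60N and H2O2, against 13.3 and 16.1 TPM under IgG (0.24 ± 0.08 (SE), adjusted p = 0.0359, limma), higher in both libraries. KIF3C and KIF12 lost their calls without IgG replicate 2 or antibody replicate 2 of HCT116 cells (up to 0.118 and 0.111), and KIF12 was at -0.35 without that antibody library. KIFC3 lost its call without 5 libraries (up to 0.24): IgG replicate 1 or either antibody library of HCT116 cells, or either H2O2 library of MDA-MB-231 cells. Its value was 0.11 without IgG replicate 1 and 0.37 without IgG replicate 2 of HCT116 cells. The KIF12 call was also lost with a pseudocount of 0.1 (adjusted p = 0.0634, limma), and the KIFC3 call with no filter on low values (0.0584). Fitted on HCT116 libraries alone, neither KIF12 nor KIFC3 was called (adjusted p = 0.0932 and 0.165, limma).

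The widest gaps between the lines were among the other kinesins. Under IgG, 6 of the 22 other kinesins were lower in HCT116 cells than in MDA-MB-231 cells and 13 were higher, where 37.3% of all genes were called lower and 45.5% higher. Of the 13, KIF5A, KIF5C, KIF12, KIF21B and KIF26A passed the filter only through HCT116 libraries, and none of the 22 passed only through MDA-MB-231 libraries. The filter thus favoured calls of higher in HCT116 cells, and the balance of 13 to 6 is not read as a result. KIFC3 had 13.3 and 16.1 TPM in HCT116 cells, against 116 and 121 TPM in MDA-MB-231 cells, a difference of -2.93 ± 0.08 (SE), adjusted p = 3.09e-11 (limma). KIF7 had 1.02 and 1.45 TPM in HCT116 cells, against 8.11 and 7.98 TPM in MDA-MB-231 cells, a difference of -2.02 ± 0.10 (SE), adjusted p = 6.95e-09 (limma). KIF3C had 2.80 and 2.89 TPM in HCT116 cells, against 13.6 and 13.6 TPM in MDA-MB-231 cells, a difference of -1.93 ± 0.09 (SE), adjusted p = 5.20e-09 (limma). All 3 were several times lower in both HCT116 libraries. KIF13B, a vesicle motor, and KIF24, which holds back cilium formation, were lower in HCT116 cells by smaller amounts, -0.34 and -0.23. The KIF24 call was lost without either MDA-MB-231 IgG library (up to 0.0855) or HCT116 IgG replicate 1, where the value was -0.11 (adjusted p = 0.287, limma), and without HCT116 IgG replicate 2 the value was -0.36.

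Several of the other kinesins were found almost only in HCT116 cells. KIF26A, a kinesin without motor activity, had 7.16 and 8.28 TPM in HCT116 cells under IgG and was listed at 0 in both MDA-MB-231 libraries under IgG. KIF5A, a neuronal heavy chain, had 3.93 and 4.63 TPM in HCT116 cells under IgG and was likewise listed at 0 in both MDA-MB-231 libraries. KIF5C, the third heavy chain gene, had 4.33 and 5.38 TPM in HCT116 cells, against 0.02 and 0.08 TPM in MDA-MB-231 cells. These values did not overlap between lines in any treatment. KIF26A, KIF5A and KIF5C passed the filter only through HCT116 libraries, so their being higher there follows in part from the filter. KIF5A and KIF5C lay under 5 TPM on average and were named after their values were seen.

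Other differences were of degree. KIF21A, which curbs microtubule growth at the cell cortex, had 24.1 and 23.5 TPM in HCT116 cells, against 4.68 and 5.25 TPM in MDA-MB-231 cells (2.06 ± 0.09 (SE), adjusted p = 1.30e-09, limma). KIFC2 had 61.1 and 75.1 TPM in HCT116 cells, against 22.7 and 25.3 TPM in MDA-MB-231 cells (1.46 ± 0.10 (SE), adjusted p = 1.13e-07, limma), and shares 21.7% of its exon bases with FOXH1 on the opposite strand. KIF1B, a carrier of mitochondria and synaptic vesicle precursors, KIF16B, an endosome motor, and KIF3B, a subunit of the ciliary kinesin, were higher in HCT116 cells by 0.70, 0.61 and 0.36 on the log2 scale. All of these were higher in both HCT116 libraries than in both MDA-MB-231 libraries.

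**Figure D5:**
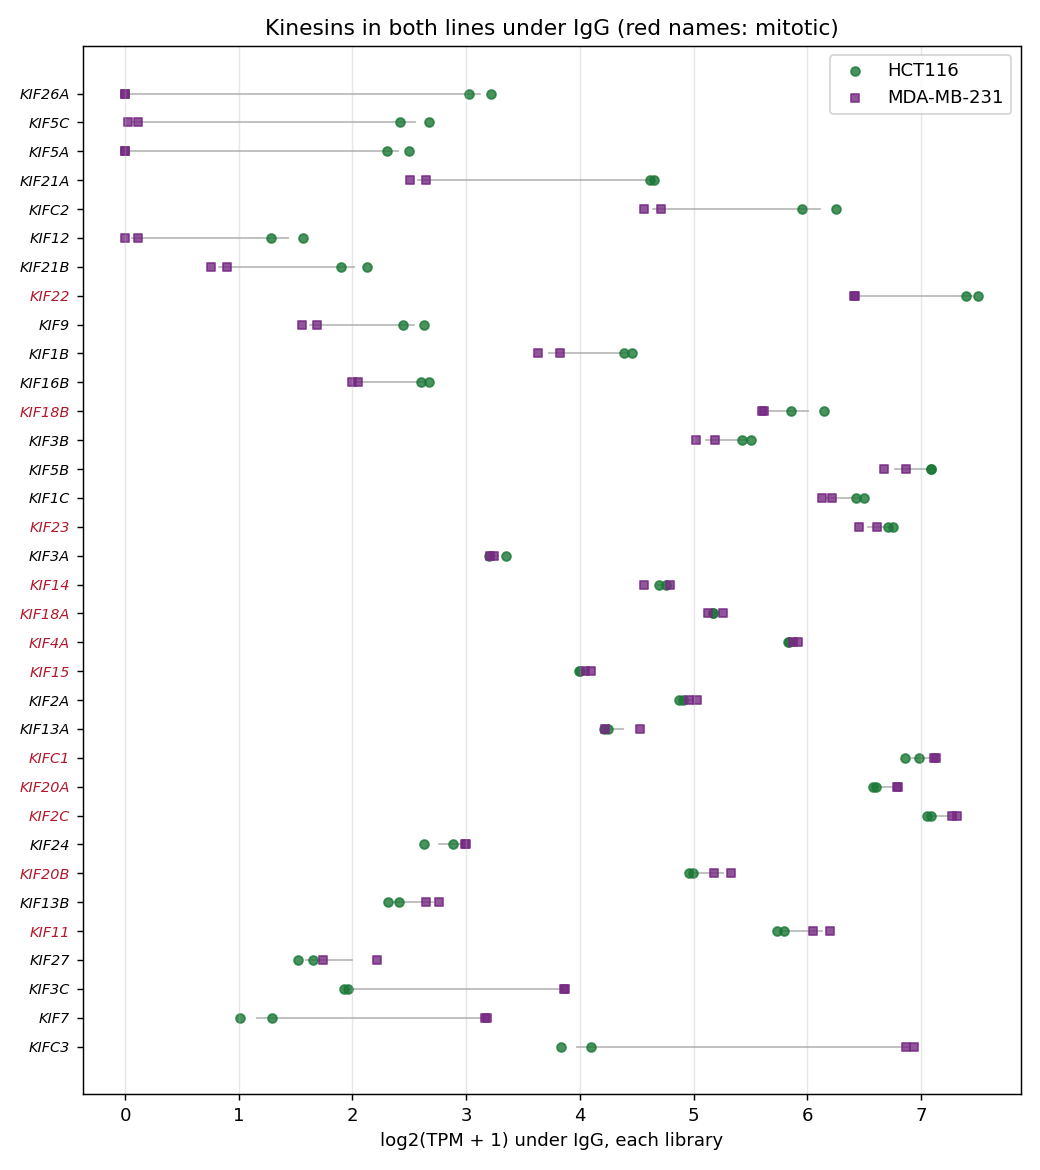
Kinesins in both lines under IgG. The horizontal axis is log2(TPM + 1), each symbol is 1 of the 2 libraries of a line, and red names mark mitotic kinesins. Other kinesins such as KIF26A, KIF21A, KIF7 and KIFC3 lie far apart between lines, while among mitotic kinesins KIF22 has the widest gap.

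Among mitotic kinesins, KIF22 differed most between the lines under IgG, and each of the other 11 differed by 0.39 or less in size on the log2 scale. KIF22 had 168 and 180.2 TPM in HCT116 cells, against 84.5 and 84.0 TPM in MDA-MB-231 cells, a difference of 1.04 ± 0.05 (SE), adjusted p = 2.43e-09 (limma). KIF18B (0.39) and KIF23 (0.20) were also higher in HCT116 cells. Lower in HCT116 cells were KIF11 (-0.36), KIF20B (-0.28), KIF2C (-0.22), KIF20A (-0.21) and KIFC1 (-0.20), which makes 5 lower and 3 higher of 12. The KIF20A call was lost without any 1 of the 6 MDA-MB-231 libraries or either HCT116 IgG library (adjusted p up to 0.12, limma) and with no filter on low values (0.064). The KIF23 call was lost without MDA-MB-231 IgG replicate 1, where the value was 0.12 (0.107), or HCT116 IgG replicate 2, and KIF18B was at 0.25 without HCT116 IgG replicate 2. Scaling by medians of ratios lowered the median difference over all genes by 0.12 from 0.11, and the split became 8 lower and 2 higher, with KIF23 no longer called (adjusted p = 0.238, limma). The sum of the 12 under IgG was 908 ± 25.1 TPM in HCT116 cells and 869.9 ± 26.7 TPM in MDA-MB-231 cells (SD, n = 2 each), and the direction of this small difference was not tested.

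Partners of the mitotic kinesins moved with them under H2O2. Of 24 spindle and midzone genes listed, 23 fell in HCT116 cells and 20 in MDA-MB-231 cells, and 0 rose in either, with a median of -0.48 in both, where 17.5% of all genes were called lower in HCT116 cells and 1.36% in MDA-MB-231 cells. PLK1, the kinase that binds KIF20A at the midzone, changed by -0.89 ± 0.05 (SE), adjusted p = 1.39e-06 in HCT116 cells and -1.07 ± 0.05 (SE), adjusted p = 4.81e-06 in MDA-MB-231 cells (limma). AURKA, the spindle pole kinase, changed by -0.85 in HCT116 cells and -0.96 in MDA-MB-231 cells. Of the chromosomal passenger complex that KIF20A carries, BIRC5 changed by -0.65 in HCT116 cells and -0.36 in MDA-MB-231 cells, and CDCA8 by -0.55 and -0.74 in that order of lines, all past the threshold. AURKB, the kinase of the complex, changed by -0.58 ± 0.06 (SE), adjusted p = 1.03e-04 in HCT116 cells and was not called in MDA-MB-231 cells (-0.24 ± 0.06 (SE), adjusted p = 0.0801, limma). INCENP, also of the complex and among the 24 listed, is not described here, so the complex is not covered in full. CENPE averaged 13.4 TPM under H2O2 and 21.5 TPM under IgG in HCT116 cells, and 17.0 TPM under H2O2 and 32.1 TPM under IgG in MDA-MB-231 cells. Its changes were -0.65 ± 0.07 (SE), adjusted p = 1.16e-04 in HCT116 cells and -0.88 ± 0.07 (SE), adjusted p = 1.31e-04 in MDA-MB-231 cells (limma).

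Regulators of cell cycle genes did not move as 1 group. Of 16 listed, 5 fell and 3 rose in HCT116 cells, and 2 fell and 3 rose in MDA-MB-231 cells. Of all genes, 17.5% were called lower and 15.4% higher in HCT116 cells, and 1.36% lower and 1.3% higher in MDA-MB-231 cells. CCNB1, the mitotic cyclin, fell by 0.75 in HCT116 cells and by 1.05 in MDA-MB-231 cells, and CCNA2 by 0.51 and 0.35 in the same order of lines. CDKN1A, the p53 target that encodes p21, rose by 1.65 in HCT116 cells and by 0.64 in MDA-MB-231 cells (adjusted p = 2.47e-09 and 3.88e-05, limma). The part of any of these genes in the kinesin changes was not tested.

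Partners of the cargo kinesins, and the opposing motor dynein, were called in both directions in HCT116 cells, and 1 was called in MDA-MB-231 cells. Of 16 light chains and cargo adaptors tested, 2 fell and 2 rose in HCT116 cells, and 0 were called in MDA-MB-231 cells. TRAK1, which links kinesin heavy chains to mitochondria, rose by 0.63 in HCT116 cells (adjusted p = 7.28e-05, limma). Of 22 subunits and cofactors of dynein and dynactin, the motor that walks to the minus end, 6 fell and 2 rose in HCT116 cells and 1 fell in MDA-MB-231 cells. DYNLL1, a dynein light chain, fell by 0.52 in HCT116 cells, and NDE1, a dynein cofactor, fell by 0.33 in MDA-MB-231 cells. These counts stand beside 32.9% of all genes called in HCT116 cells (17.5% lower and 15.4% higher) and 2.66% in MDA-MB-231 cells (1.36% lower and 1.3% higher). Taken in both directions, the HCT116 counts are near the share of all genes.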

How the data were processed

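The deposited values are TPM per gene, made by the authors and given to 2 decimals in 1 table of 23686 genes and 12 libraries, all of whose columns were matched to samples. Per the submitters' processing notes, the build was hg19 and the tools included RSEM, STAR and bcl2fastq 2.20, with no role or order given. No source used here gives the gene annotation. Tests ran on log2(TPM + 1), where fold changes of low genes are understated. Genes with at least 1 TPM in at least 2 libraries were kept (13956), and 4505 were at 0 in every library. A listed 0 can be a failed estimate. All tests were two-sided and used limma 3.58.1 in R 4.3.3, its variance following a trend, on 6 group means over all 12 libraries. There were 6 residual and 4.63 prior degrees of freedom, and Benjamini-Hochberg adjustment ran over all genes kept, with a threshold of 0.05. The design was chosen for lack of a stated one. The fit was tested on simulated data.

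The members, lists and named genes were chosen with earlier results of these data known. Named genes were all mitotic kinesins and the other kinesins that passed the threshold (for the lines, those with a mean of at least 5 TPM and the largest change). Partners named were up to 3 of smallest p per list and comparison, and CENPE. Some partners are also given in a line where they were not called, as AURKB is for MDA-MB-231 cells. Motifs were searched as exact letters with Python 3.11.15 in RefSeq windows, and figures were drawn with matplotlib 3.10.9. Gene coordinates of the files' build were not used here. Alternatives were a pseudocount of 0.1, no filter, a mean of at least 5 TPM, median-of-ratios scaling, each line alone, a replicate block and leaving out each library.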

Additional observations from a re-analysis of the deposited data

Results flagged for a closer look

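The change with H2O2 differed between the lines for 5 kinesins, by the limma test of the difference itself over all genes tested. The difference, HCT116 minus MDA-MB-231 on the log2(TPM + 1) scale, was 0.64 for KIFC3 (adjusted p = 0.00406), 0.52 for KIF20A (adjusted p = 0.0158), 0.52 for KIF7 (adjusted p = 0.0331), 0.26 for KIF2C (adjusted p = 0.0247) and -0.34 for KIF1C (adjusted p = 0.0171), all by limma. KIF20A and KIF2C fell in both lines and by less in HCT116 cells. KIFC3 rose in HCT116 cells and was lower without a call in MDA-MB-231 cells, and KIF1C fell in HCT116 cells with groups that overlapped in MDA-MB-231 cells. KIF7 lay near 1 TPM in HCT116 cells, and its call was lost with no filter on low values (adjusted p = 0.0554, limma) and with a pseudocount of 0.1 (adjusted p = 0.0651, limma). The lines were grown in different media, which cannot be told apart from the lines.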

How the results depend on the processing

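No kinesin changed direction among its called values under any alternative run. The count of mitotic kinesins called with H2O2 against IgG in MDA-MB-231 cells fell to 5 when each line was fitted alone and was 6 to 11 when 1 library was left out, and with anti-Hsp60N and H2O2 against IgG it was 6 and 7 to 11. In HCT116 cells these counts were 10 to 11 and 9 to 11 when 1 library was left out. Fitted on HCT116 libraries alone, 10 mitotic kinesins were called with H2O2 against IgG and 8 with anti-Hsp60N and H2O2 against IgG. Other kinesins called with H2O2 against IgG numbered 1 in HCT116 cells with each line fitted alone and 2 in MDA-MB-231 cells with median-of-ratios scaling. With anti-Hsp60N and H2O2 against IgG they numbered 2 in HCT116 cells with each line fitted alone and 1 (KIF5B) in MDA-MB-231 cells with median-of-ratios scaling. For the lines under IgG, 10 were called with a mean of at least 5 TPM, where fewer genes were tested. Leaving out 1 library gave 1 to 2 and 0 to 2 other kinesins with H2O2 in HCT116 and MDA-MB-231 cells, 1 to 4 and 0 to 1 with anti-Hsp60N and H2O2 against IgG, and 17 to 19 for the lines. The line difference in the response to H2O2 held 0 to 2 mitotic and 1 to 3 other kinesins, the lines under IgG held 6 to 8 mitotic kinesins, and the antibody comparisons under H2O2 held 0. Leaving out a library or fitting each line alone also left fewer samples in the fit, and the cause of these shifts was not tested.

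Same-numbered replicates did not all deviate together (correlations of -0.127 to 0.164), so the numbers are not taken as pairs. With the replicate number as a block, 4 of 306 kinesin values lost their call and 0 gained one: KIF18B and KIF20B with H2O2 in MDA-MB-231 cells (adjusted p = 0.0591 and 0.0607, limma), KIF22 there with anti-Hsp60N and H2O2 against IgG (0.0661) and KIF20A between the lines (0.0536). The mitotic count with H2O2 was then 9 in MDA-MB-231 cells and 11 in HCT116 cells. With the block and the numbers crossed in the HCT116 H2O2 group, an alternative chosen after seeing the data, 11 mitotic and 2 other kinesins were called there. The depth behind TPM is unknown, and 2 libraries a group limit the precision.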

Other observations

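KIF26A and KIF5A, found almost only in HCT116 cells, were not called between treatments there. KIF26A had 6.29 and 7.13 TPM with anti-Hsp60N and H2O2, 7.28 and 6.50 TPM with IgG and H2O2, and 7.16 and 8.28 TPM with IgG, where the antibody libraries lay just below the IgG libraries. KIF5A had 4.15 and 4.46 TPM, 4.45 and 3.17 TPM and 3.93 and 4.63 TPM in those groups, and the libraries of the groups overlapped. In MDA-MB-231 cells KIF26A and KIF5A did not exceed 0.03 TPM in any library.

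Among ubiquitous kinesins, KIF2A, a microtubule depolymerase related to KIF2C that is used outside mitosis too, was not called under H2O2 in either line. KIF2A had 28.3 and 25.8 TPM in HCT116 cells under H2O2, against 29 and 28.4 TPM under IgG, and 33.1 and 32.2 TPM in MDA-MB-231 cells under H2O2, against 30.0 and 31.7 TPM under IgG. Its change was -0.08 ± 0.06 (SE), adjusted p = 0.361 in HCT116 cells and 0.08 ± 0.06 (SE), adjusted p = 0.614 in MDA-MB-231 cells (limma). KIF3A, a subunit of the ciliary kinesin, was not called either, with values of -0.21 ± 0.09 (SE), adjusted p = 0.119 in HCT116 cells and -0.15 ± 0.09 (SE), adjusted p = 0.476 in MDA-MB-231 cells (limma). KIF3A had 6.86 and 7.97 TPM in HCT116 cells under H2O2, against 9.22 and 8.20 TPM under IgG. In MDA-MB-231 cells it had 7.39 and 7.53 TPM under H2O2, against 8.27 and 8.49 TPM under IgG. Both H2O2 libraries were thus lower in each line, where 33.6% and 17.3% of all genes were lower without overlap. KIF2A and KIF3A were chosen after their values were seen.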
